A study of Mus musculus with 8 samples.

Results

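The TGFβ1 response of mouse pancreatic ductal adenocarcinoma (PDAC) cells with Smad4 switched off was described from 4 RNA-seq libraries of the 8 in the series, across 14301 tested genes of the 53465 in the table. The members were chosen by label. They are the libraries of cells kept on doxycycline (Dox) and treated for 24 h with either 100 pM recombinant mouse TGFβ1 or 2.5 µM SB505124, a kinase inhibitor of the TGFβ type I receptors, with each treatment run in 2 lines, KCS-B73 and KCS-B87. Both lines were grown from primary pancreatic tumors of mice carrying Ptf1a-Cre, which recombines in the pancreatic epithelium, an LSL-rtTA3-IRES-mKate2 allele at Rosa26 and a Dox-inducible short hairpin RNA against Smad4 at the Col1a1 locus, so that the groups compared share the Cre, the transactivator, the hairpin and continuous Dox. The other 4 libraries are of the same lines and treatments, with the cells kept without Dox for 5 days before plating (Smad4 on). Treatment began 24 h after plating. The cells were passaged until non-tumor cells should have been lost, each line came from a single tumor, and which of the study's Smad4 hairpins each line carries was not given per line. No untreated arm was analysed, so a gene higher with TGFβ1 may have been raised by the ligand, lowered by the inhibitor, or both, and these cannot be told apart.

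TGFβ ligands bind a type II receptor that phosphorylates a type I receptor, which then phosphorylates SMAD2 and SMAD3. SMAD4 is the shared partner that joins them. In the nucleus the complex binds DNA together with other transcription factors and turns on targets that include its own inhibitors. The receptors also signal through MAP kinases and other routes that do not need SMAD4. In pancreatic epithelium the pathway is known for growth arrest, for an epithelial to mesenchymal transition and for matrix production, and SMAD4 is one of the genes most often lost in PDAC. The comparison therefore asked which genes still differed between ligand and inhibitor when Smad4 had been depleted.

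Smad4, the depleted gene, measured 33.7 and 34.9 CPM with SB505124 and 34.7 and 35.5 CPM with TGFβ1, and did not pass the test between the treatments (log2 fold change 0.03 ± 0.09, adjusted p = 0.854). Cells off Dox held 97.4 and 114 CPM with SB505124 and 117 and 116 CPM with TGFβ1, so the 4 Smad4-off libraries lay below all 4 Smad4-on libraries but kept part of the transcript. CPM express each count relative to the library's TMM-scaled total, and values are given for KCS-B73 first and KCS-B87 second throughout. The 4 libraries held 19037427 to 23123069 counts, at which 3 counts correspond to 0.129 to 0.150 CPM. All 8 ductal epithelial markers were measured, with summed levels of 4063 and 2158 CPM with SB505124 and 3984 and 1335 CPM with TGFβ1. Most of each sum came from keratins, of which Krt19 was called lower, the 1 called marker of this list. Epcam was near the floor, at 8 and 4 counts with SB505124 and 8 and 11 counts with TGFβ1. Of 8 leukocyte markers 4, Ptprc, Cd3e, Adgre1 and Itgam, had no count, as had all 6 islet markers and 5 of 8 acinar markers. The leukocyte sum was 6.39 and 2.24 CPM with SB505124 and 3.04 and 2.19 CPM with TGFβ1, nearly all of it Cd68 at 6.29 and 2.15 CPM and 3.00 and 2.09 CPM. Fibroblast markers were low, with Lum and Thy1 at 0 in all 4 libraries, but their summed level went from 21.6 and 75.1 CPM to 45.8 and 251.7 CPM, and 1 of the 6 tested, Col1a1, was called higher with TGFβ1. The 2 endothelial markers that were tested were also called higher, from a sum of 2.25 and 5.18 CPM over the list to 7.24 and 26.1 CPM, with Cldn5 and Emcn at 0. The part of other cells in the matrix genes below was not tested, and in bulk RNA fewer cells of a type and less RNA per cell cannot be told apart. The main axis of variation among the 4 libraries separated the lines (53.9% of the variance) and the next separated the treatments (39.3%).

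With TGFβ1, 445 genes were higher (3.11% of those tested) and 403 were lower (2.82%), called at a Benjamini–Hochberg adjusted p under 0.05 in edgeR's quasi-likelihood test with the line in the model and a change of over 2-fold. Over 4-fold there were 184 rises and 192 falls, and over 8-fold 78 rises and 108 falls. The called falls were the larger and came from less expressed genes, with a median log2 fold change of -1.95 at a median level of 1.85 log2 CPM, against 1.79 at 3.01 log2 CPM for the rises and a median level of 4.59 log2 CPM over all tested genes. Both lines moved in the called direction for 843 of the 848 genes, and 684 passed 2-fold in each line. Without the line as a replicate block 121 rises and 47 falls remained, all among the calls above. With any one of the 4 libraries left out, rises numbered 387 without the KCS-B73 SB505124 library, 319 without KCS-B73 TGFβ1, 251 without KCS-B87 SB505124 and 226 without KCS-B87 TGFβ1, and falls numbered 279, 156, 262 and 151 in that order. Of the 156 called genes that the naming rule picked, 73 kept the call whichever library was left out. For the others named below, the range of the log2 fold change over those 4 fits is given as the leave-out range, with the library or libraries without which the call was lost.

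**Figure D1:**
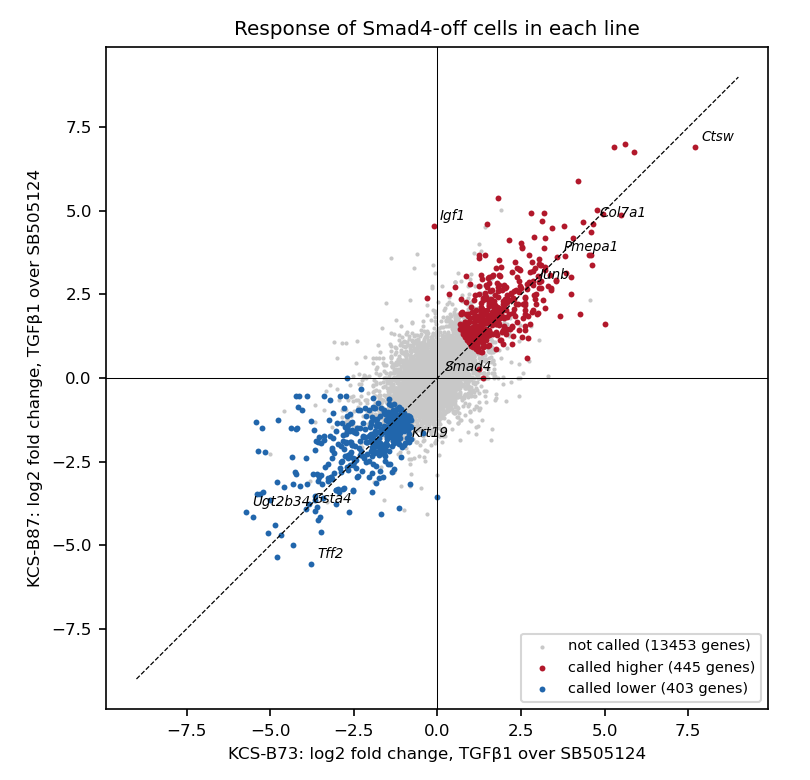
Log2 fold change of TGFβ1 over SB505124 in Smad4-off cells of KCS-B73 (x axis) against KCS-B87 (y axis), 1 point per tested gene, with genes called higher in red, called lower in blue and not called in grey; the dashed line marks equal change. The 445 red and 403 blue points follow the dashed line in opposite quadrants, and Igf1 is among the 5 called genes whose lines did not move together.

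The largest rises included secreted and matrix genes with a low level under the inhibitor. Col7a1, the collagen of the fibrils that anchor epithelium to stroma, went from 10.1 and 19.4 CPM to 258 and 478 CPM (log2 fold change 4.65 ± 0.16, adjusted p = 6.96e-05). Both TGFβ1 libraries lay far above both SB505124 libraries. Ccbe1, a secreted factor of lymphatic growth, went from 1.5 and 1.8 CPM to 49.0 and 56.9 CPM (log2 fold change 5.00 ± 0.33). Other rises of this size were Ctsw, a cathepsin known from cytotoxic lymphocytes, at 0.0499 and 0.264 CPM with SB505124 and 30.2 and 43.1 CPM with TGFβ1 (log2 fold change 7.76 ± 0.54, adjusted p = 0.000662). Edn1, the precursor of the vasoconstrictor endothelin, measured 0.499 and 0.747 CPM with SB505124 and 8.10 and 19.5 CPM with TGFβ1 (log2 fold change 4.40). The LIM protein Lmcd1 (4.34), the scaffold gene Frmpd1 (4.52) and the little described 2310007B03Rik (6.2) and 2010300F17Rik (4.66, log2 fold changes) also rose. The mechanosensitive channel gene Piezo2 and the latent TGFβ binding protein gene Ltbp2 rose unequally in the lines, to 5.53 and 85.3 CPM and 2.19 and 38.6 CPM, in that order (Piezo2 leave-out range 5.80 to 7.24, call lost without KCS-B87 SB505124; Ltbp2 leave-out range 2.74 to 5.19, call lost without either KCS-B87 library). The called rises of highest CPM included Fn1, which encodes fibronectin, at 1416 and 1141 CPM with SB505124 and 5468 and 4731 CPM with TGFβ1, and Msn, which links actin to the membrane, at 1155 and 1097 CPM with SB505124 and 3121 and 3408 CPM with TGFβ1. Tpm1, a tropomyosin, measured 933 and 997 CPM with SB505124 and 1916 and 2215 CPM with TGFβ1. Fn1 had a log2 fold change of 1.99 (leave-out range 1.77 to 2.28, call lost without KCS-B73 TGFβ1 or KCS-B87 SB505124).

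**Figure D2:**
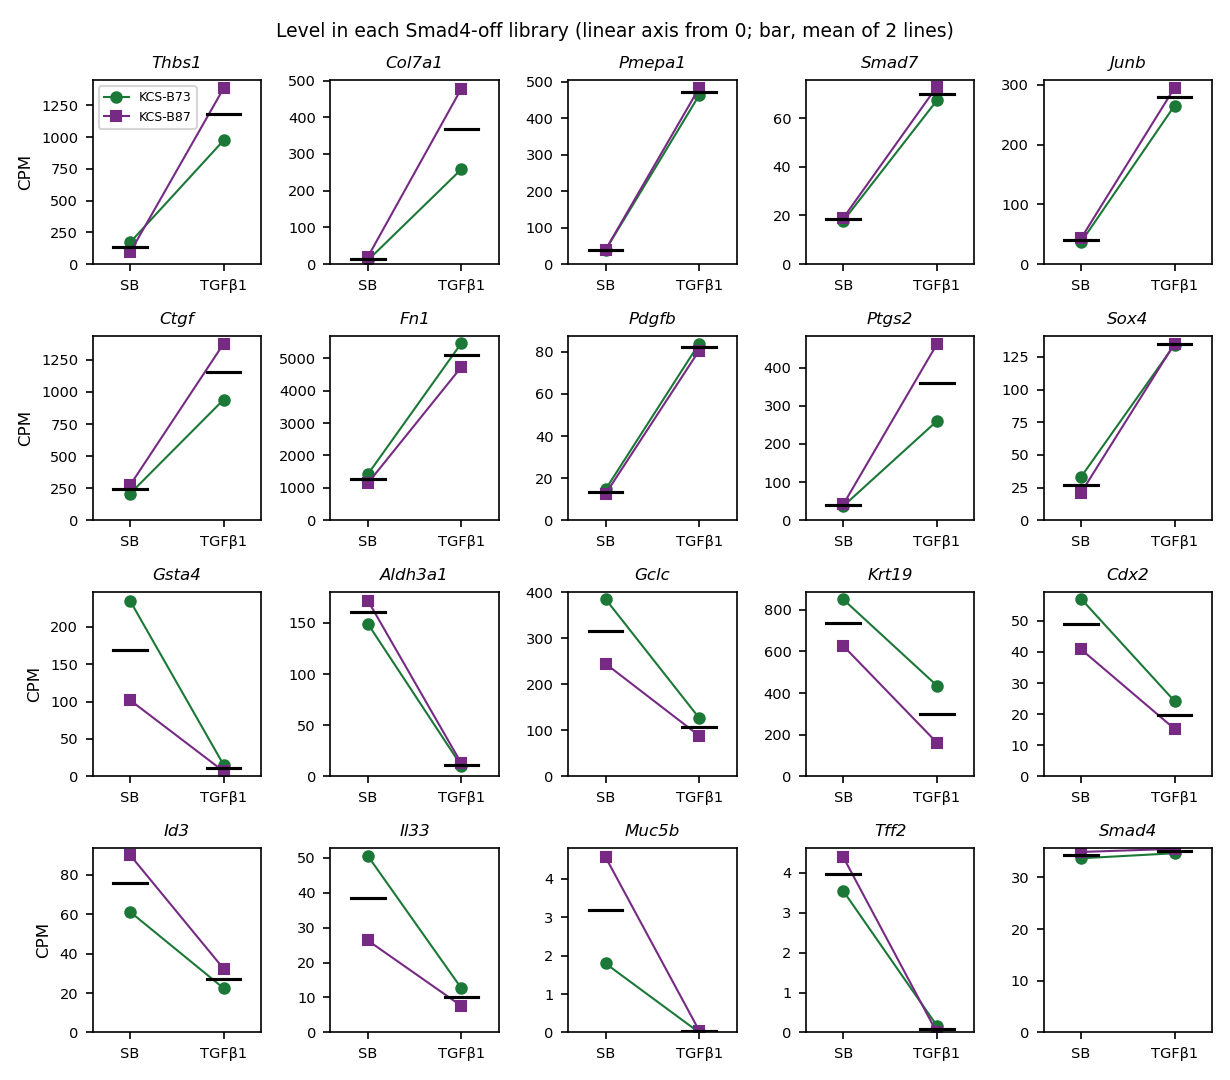
CPM of 20 genes in each of the 4 Smad4-off libraries, with SB505124 left and TGFβ1 right on linear axes from 0; green circles are KCS-B73, purple squares KCS-B87, lines join libraries of the same line and black bars are means of 2. Both lines rose for Thbs1 through Sox4 and fell for Gsta4 through Tff2, while Smad4 stayed between 33.7 and 35.5 CPM.

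Genes of the TGFβ pathway itself rose more often than they fell. Of 33 tested ligand, receptor and SMAD genes (3 more were listed but not tested), 6 were called higher and 0 lower, at a median log2 fold change of 0.26 (0.14 to 0.63 over the alternative fits) against -0.02 over all tested genes; 10 passed the adjusted p alone. Inhba, the subunit of activin A, measured 23.1 and 74.2 CPM with SB505124 and 97 and 388 CPM with TGFβ1 (log2 fold change 2.24 ± 0.19, adjusted p = 0.00113). Inhbb, the subunit of activin B, went from 1.10 and 1.76 CPM to 9.08 and 8.52 CPM, a log2 fold change of 2.66 (leave-out range 2.27 to 3.06, call lost in all fits but that without KCS-B87 TGFβ1). The activin antagonists Fstl3 (2.06) and Fst (1.35) and the type I receptor gene Acvr1 (1.38, log2 fold changes) were the other called members. Called members named beyond the naming rule, here and below, complete a count and were chosen after their values were seen, and no leave-out range was computed for them. Tgfb1, the ligand gene, did not pass 2-fold (log2 fold change 0.55 ± 0.11, adjusted p = 0.0243), and neither the main receptors Tgfbr1 (0.06) and Tgfbr2 (-0.14) nor Smad2 (0.12) and Smad3 (0.16) were called.

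Feedback inhibitors of the pathway were called higher in 6 of 17 tested cases and lower in 0, with a median of 0.57. Pmepa1, a membrane protein that sequesters receptor-regulated SMADs, measured 38.6 and 39.2 CPM with SB505124 and 463 and 483 CPM with TGFβ1 (log2 fold change 3.61 ± 0.25, adjusted p = 0.000662), nearly equal in the lines. Smad7, the inhibitory SMAD that targets the type I receptor, measured 17.8 and 18.9 CPM with SB505124 and 67.2 and 72.9 CPM with TGFβ1 (log2 fold change 1.93 ± 0.12, adjusted p = 0.000467). Spsb1, an adaptor for degradation of the type II receptor, went from 2.85 and 5.84 CPM to 13.5 and 34.2 CPM (log2 fold change 2.41). These 3 kept the call without any one library, and rose in both lines. The other called members were the SMAD repressors Skil (1.73) and Tgif1 (1.17) and the SMAD-binding Ldlrad4 (1.49). Without the replicate block 5 of these 6 stayed called. A panel of 9 fibrogenic SMAD4 targets had 6 called higher and 0 lower. The panel was taken from the study, and whether these libraries entered its choice was not stated, so the count is not taken as independent evidence of direction. Pdgfb in it rose in these Smad4-depleted cells from 14.6 and 12.5 CPM to 83.9 and 80.7 CPM, Wisp1 from 4.34 and 13.3 CPM to 41.2 and 125 CPM. Has2, the hyaluronan synthase, was at 0 and 0.615 CPM with SB505124 and 1.67 and 41.8 CPM with TGFβ1, a large inequality of the lines (log2 fold change 5.77, leave-out range 3.56 to 9.54, call lost without KCS-B87 SB505124).

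Many matrix genes rose. Of 34 tested matricellular proteins and matrix glycoproteins, 15 were called higher and 3 lower. The median log2 fold change was 1.29 in the fit (0.58 in KCS-B73, 1.07 in KCS-B87 and 0.97 to 1.45 over the alternative fits). Thbs1, thrombospondin 1, which activates latent TGFβ, measured 169.9 and 91.9 CPM with SB505124 and 975 and 1386 CPM with TGFβ1 (log2 fold change 3.17 ± 0.41, adjusted p = 0.00471). Fbln2, a fibulin of elastic fibers, measured 288 and 704 CPM with SB505124 and 1271 and 2633 CPM with TGFβ1 (log2 fold change 2.02 ± 0.11, adjusted p = 0.000386). Wisp1, a CCN family protein, had a log2 fold change of 3.24 ± 0.09. All of these rose in both lines. Spp1, which encodes osteopontin, measured 1218 and 568 CPM with SB505124 and 2750.0 and 1536 CPM with TGFβ1, a log2 fold change of 1.28 (leave-out range 0.94 to 1.74, call lost in all fits but that without KCS-B73 SB505124). Its exons overlap another gene on the same strand, Gm42793, over 18.8% of their bases. Tnxb, tenascin X, moved the other way, from 3.99 and 8.79 CPM to 0.428 and 0.797 CPM (log2 fold change -3.35 ± 0.43, adjusted p = 0.00442). So did Nov, a further CCN gene (-1.93, leave-out range -2.46 to -1.57, call lost without either TGFβ1 library), and Efemp1, fibulin 3 (-1.59, leave-out range -1.85 to -1.28, call lost without KCS-B73 TGFβ1).

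Among 26 tested collagen genes (11 more were listed and not tested), 7 were called higher and 0 lower at a median of 0.94. Col1a1, a chain of type I collagen, differed widely between the lines, at 0.349 and 25.9 CPM with SB505124 and 2.19 and 161 CPM with TGFβ1 (log2 fold change 2.73 ± 0.25, adjusted p = 0.00154). Leaving out libraries gave 2.17 to 3.41, with the call lost without KCS-B87 SB505124. The hairpin cassette of this mouse model sits at the Col1a1 locus. Its partner chain Col1a2 was not called (-0.25). Col5a3, a minor fibrillar collagen, rose from 0.250 and 0.351 CPM to 2.87 and 2.79 CPM (leave-out range 2.73 to 3.72, call lost in all fits but that without KCS-B73 TGFβ1). Of 21 collagen-modifying enzymes 3 were called higher and 0 lower. Lox, the crosslinking lysyl oxidase, went from 0.349 and 0 CPM to 4.07 and 0.847 CPM, its relative Loxl2 from 77.3 and 87.5 CPM to 164 and 310.3 CPM, and Bmp1, the procollagen C-proteinase, from 78.8 and 90.6 CPM to 196 and 258 CPM. For Loxl2, 43.6% of the 75-base stretches of its transcripts also occur in Gm21451, so its counts are less certain. Laminins and basement membrane genes gave 2 called higher of 12 and a median of -0.21. Lamb3, an epithelial laminin chain, rose from 8.88 and 1.67 CPM to 71.6 and 14.5 CPM (log2 fold change 3.10 ± 0.20, adjusted p = 0.000638). Lamb1 had a log2 fold change of 1.21 (leave-out range 1.06 to 1.4, call lost without KCS-B73 TGFβ1 or KCS-B87 SB505124). Lama3, the partner chain of Lamb3, was not called (-1.22).

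Matrix proteases and their inhibitors gave 7 rises and 3 falls among 30 tested, a median of 0.54. Adamts6 rose from 2.15 and 1.76 CPM to 20.4 and 27.1 CPM (log2 fold change 3.62 ± 0.28, adjusted p = 0.000953). Mmp3, stromelysin 1, fell from 8.73 and 72.6 CPM to 0.343 and 8.07 CPM (log2 fold change -3.60 ± 0.33, adjusted p = 0.00147). Adamts15, an aggrecan-cleaving protease, went from 2.65 and 3.82 CPM to 0.343 and 0.149 CPM (leave-out range -4.88 to -2.81, call lost without either TGFβ1 library). The plasminogen activator genes Plau (0.62) and Plat (-0.29) were not called. Of 17 tested integrin genes 2 were called higher and 1 lower. Itgb3, the β3 chain of a vitronectin receptor, rose from 3.10 and 3.16 CPM to 11.1 and 21.3 CPM (leave-out range 1.97 to 2.65, call lost without either KCS-B87 library). Itgb7 fell from 52.6 and 0.527 CPM to 13.7 and 0.0996 CPM (leave-out range -2.78 to -1.28, call lost without either KCS-B73 library), a gene that was near silent in KCS-B87 under either treatment.

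Most cytoskeletal genes had small positive values. Of 32 tested actin cytoskeleton and SRF target genes, 29 had a positive log2 fold change, 7 were called higher and 1 lower, and the median was 0.65; 6824 of all 14301 tested genes had a positive value. Pdlim7, a LIM protein of stress fibers, measured 43.6 and 33.6 CPM with SB505124 and 184 and 189 CPM with TGFβ1 (log2 fold change 2.28 ± 0.11, adjusted p = 0.000231). Actn1, the crosslinker α-actinin 1, measured 439 and 428 CPM with SB505124 and 1068 and 1255 CPM with TGFβ1 (log2 fold change 1.42 ± 0.12, adjusted p = 0.00105). Acta2, smooth muscle actin, measured 10.2 and 20.6 CPM with SB505124 and 31.9 and 129 CPM with TGFβ1 (log2 fold change 2.19). Mylk, the myosin light chain kinase, went down from 101 and 55.4 CPM to 25.2 and 16.9 CPM (leave-out range -2.38 to -1.18, call lost in all fits but that without KCS-B87 SB505124). YAP and TEAD targets gave 5 rises and 0 falls among 23, with a median of 0.61. The CCN genes Cyr61 and Ctgf led them, with Cyr61 at 96.1 and 183 CPM with SB505124 and 592 and 964 CPM with TGFβ1. Ctgf measured 207 and 273 CPM with SB505124 and 940.2 and 1377 CPM with TGFβ1 (log2 fold change 2.26 ± 0.14, adjusted p = 0.000597). The exons of Ctgf overlap an antisense gene, Gm15270, over 23.2% of their bases, and whether counting used strand was not stated.

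Immediate early genes gave 4 rises and 0 falls of 18 tested, at a median of 0.67. Junb, an AP-1 subunit and direct TGFβ target, measured 36.6 and 42.9 CPM with SB505124 and 265 and 295 CPM with TGFβ1 (log2 fold change 2.82 ± 0.15, adjusted p = 0.000338). Its relative Fosb went from 1.60 and 1.01 CPM to 8.83 and 5.03 CPM, and Ier3 was the other frequent member called (1.24). Egr2 was near the floor with SB505124 (2 and 3 counts) and had 10 and 57 counts with TGFβ1, a ratio of summed levels of 13.2 with a 95% exact counting interval of 5.39 to 42.0, mostly from KCS-B87 and not called without either KCS-B87 library. Fos (0.33), Egr1 (0.14) and Jund (-0.16) were not called at this time point. Among 20 ERK feedback genes 2 were called higher and 0 lower. Errfi1, which restrains EGFR, measured 122 and 144 CPM with SB505124 and 408 and 439 CPM with TGFβ1. Dusp1, a MAP kinase phosphatase, measured 13.8 and 16.8 CPM with SB505124 and 44.8 and 68.5 CPM with TGFβ1. The Sprouty gene Spry4 (-0.22) and Dusp6 (0.07) were not called.

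Promoter windows were read from RefSeq on GRCm38.p6 (250 bases before the start to 50 after it), for the 304 called higher, 283 called lower and 10260 tested genes that matched the table by symbol. The AP-1 motif TGANTCA was found on either strand in 13.2% of the higher genes, 12% of the lower genes and 6.64% of all tested genes, and in 7.81% of all windows. The SMAD motif CAGACAG was found in 12.5%, 9.89% and 7.73% of the same sets (7.73% of windows), the TEAD motif GGAATG in 18.8%, 19.1% and 14.7% (14.7%), the E-box CACCTG in 25.7%, 26.9% and 21.0% (20.2%) and the CArG box of SRF in 1.64%, 2.83% and 1.62% (1.63%). The SMAD palindrome GTCTAGAC was in 1 higher and 2 lower promoters. Shares were thus above those of all tested genes in both directions for AP-1, SMAD CAGACAG, TEAD and E-box motifs, and a match is a description of letters in the window, not a bound site. The following 4 windows are of genes with large changes, 1 for the CArG box, 1 for the SMAD motif and 2 for AP-1, which stood in the promoter of a riser and of a faller alike. They belong to Lmcd1 (chr6:112273508-112273807, + strand), Lamb3 (chr1:193301744-193302043, + strand), the cytokine gene Il11 (chr7:4778092-4778391, - strand) and Mmp3 (chr9:7445572-7445871, + strand), are written 5′ to 3′ on the gene's strand, and have the motif in capitals.
Lmcd1: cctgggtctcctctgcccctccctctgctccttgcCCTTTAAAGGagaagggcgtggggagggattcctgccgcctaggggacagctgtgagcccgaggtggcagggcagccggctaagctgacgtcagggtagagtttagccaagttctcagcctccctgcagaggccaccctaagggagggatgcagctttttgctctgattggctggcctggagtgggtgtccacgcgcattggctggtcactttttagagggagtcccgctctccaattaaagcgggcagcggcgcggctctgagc
Lamb3: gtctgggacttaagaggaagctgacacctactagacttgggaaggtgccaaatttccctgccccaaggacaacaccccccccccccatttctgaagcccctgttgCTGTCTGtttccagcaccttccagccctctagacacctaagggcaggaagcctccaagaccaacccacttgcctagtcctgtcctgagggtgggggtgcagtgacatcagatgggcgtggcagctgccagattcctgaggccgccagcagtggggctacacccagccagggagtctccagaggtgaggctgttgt
Il11: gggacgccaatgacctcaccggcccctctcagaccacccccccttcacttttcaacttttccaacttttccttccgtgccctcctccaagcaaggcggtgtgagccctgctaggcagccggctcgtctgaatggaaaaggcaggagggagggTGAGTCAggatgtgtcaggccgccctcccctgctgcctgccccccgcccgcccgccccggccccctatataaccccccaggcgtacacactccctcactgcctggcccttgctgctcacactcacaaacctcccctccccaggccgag
Mmp3: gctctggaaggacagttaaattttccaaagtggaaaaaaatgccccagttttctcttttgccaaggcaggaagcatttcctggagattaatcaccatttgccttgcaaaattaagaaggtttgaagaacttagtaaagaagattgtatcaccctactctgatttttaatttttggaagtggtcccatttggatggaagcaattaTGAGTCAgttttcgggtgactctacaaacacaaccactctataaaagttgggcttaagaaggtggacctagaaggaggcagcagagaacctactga

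Several secreted growth factors rose. Of 26 tested PDGF, VEGF, FGF and IGF family genes, 9 were called higher and 2 lower. Pdgfb, the ligand that recruits mesenchymal cells, measured 14.6 and 12.5 CPM with SB505124 and 83.9 and 80.7 CPM with TGFβ1 (log2 fold change 2.63 ± 0.32, adjusted p = 0.00399). Igf1 was called from KCS-B87 alone, at 0.0998 and 0.966 CPM with SB505124 and 0.0857 and 24.6 CPM with TGFβ1. Without the KCS-B87 SB505124 library its log2 fold change was -0.88 in place of 4.41. It was the only named called gene whose direction turned, so no direction is drawn for it. Fgf1 fell in the fit (-2.78, leave-out range -3.79 to -1.43, call lost in all fits but that without KCS-B87 TGFβ1), from 17.0 and 2.68 CPM to 1.16 and 1.05 CPM. Vegfa, the angiogenic factor, stayed under the 2-fold rule at 69.4 and 65.8 CPM with SB505124 and 123 and 118 CPM with TGFβ1 (log2 fold change 0.84 ± 0.09, adjusted p = 0.00244). In the EGF family, Hbegf rose from 90.1 and 131 CPM to 238 and 354 CPM (leave-out range 1.18 to 1.65, call lost without KCS-B87 TGFβ1). The receptor gene Erbb3 fell from 19.1 and 8.08 CPM to 4.58 and 2.34 CPM (log2 fold change -1.95 ± 0.24, adjusted p = 0.00416). That family had 1 rise and 2 falls among 12.

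Cytokine and chemokine genes split by member. The IL-1 and IL-6 families had 5 rises and 3 falls among 20 tested. Il11, a profibrotic cytokine, measured 0.449 and 0.351 CPM with SB505124 and 4.97 and 8.07 CPM with TGFβ1 (leave-out range 3.19 to 4.85, call lost without either SB505124 library). Csf2, which encodes GM-CSF, measured 0.349 and 0.307 CPM with SB505124 and 6.26 and 3.44 CPM with TGFβ1 (leave-out range 3.05 to 4.56, call lost without KCS-B73 SB505124). Il33, an alarmin, fell from 50.5 and 26.3 CPM to 12.6 and 7.57 CPM (log2 fold change -1.90 ± 0.12, adjusted p = 0.000479). Lifr, the LIF receptor, fell from 11.4 and 9.84 CPM to 2.87 and 2.29 CPM (log2 fold change -2.06 ± 0.23, adjusted p = 0.00296). The IL-1 receptor antagonist gene Il1rn went from 93.8 and 47.2 CPM to 21.0 and 13.9 CPM (leave-out range -2.23 to -1.67, call lost in all fits but that without KCS-B73 SB505124). Il6 had a log2 fold change of 5.75 and was not called (adjusted p = 0.0911). Of 13 tested chemokine genes 4 were higher and 4 lower. The falls were of neutrophil-attracting chemokines and Ccl20: Cxcl5 went from 12.9 and 1.45 CPM to 0.257 and 0.0498 CPM (leave-out range -5.67 to -4.46, call lost without KCS-B73 TGFβ1). Cxcl1 went from 17.4 and 28.6 CPM to 2.96 and 2.69 CPM (leave-out range -3.68 to -2.30, call lost without any one library). Cxcl15 had 75 and 86 counts with SB505124 and 1 and 0 counts with TGFβ1, a ratio of summed levels of 163 (95% exact counting interval 28.9 to 6490.0; call lost without either TGFβ1 library). Rises were seen for the monocyte attractant Ccl2, at 5.09 and 5.58 CPM with SB505124 and 15.4 and 34.7 CPM with TGFβ1 (leave-out range 1.48 to 2.76, call lost in all fits but that without KCS-B73 SB505124). Cxcl16 (1.52, leave-out range 0.96 to 2.17, call lost without either KCS-B87 library) and Ccl9 (1.43, leave-out range 1.03 to 1.91, call lost in all fits but that without KCS-B73 SB505124) rose as well. Cxcl12 rose by 1.38 (log2).

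Among genes with a mean of at least 1 log2 CPM and the same sign in both lines, the 12 largest called falls included those of Ugt2b34, Gda, Sult1c2, Gsta4 and Aldh3a1. Gsta4, a glutathione transferase that clears lipid aldehydes, measured 235 and 102 CPM with SB505124 and 15.2 and 6.62 CPM with TGFβ1 (log2 fold change -3.95 ± 0.12, adjusted p = 3.15e-05). Aldh3a1, an aldehyde dehydrogenase, measured 149 and 172 CPM with SB505124 and 10.2 and 12.6 CPM with TGFβ1 (log2 fold change -3.82 ± 0.12, adjusted p = 3.15e-05). These had the smallest adjusted p of all named genes, together with Wisp1. Ugt2b34, a glucuronosyltransferase, fell from 38.7 and 7.82 CPM to 0.643 and 0.399 CPM, Gda, guanine deaminase, from 25.9 and 12.2 CPM to 0.471 and 0.598 CPM, and Sult1c2, a sulfotransferase, from 8.84 and 12.6 CPM to 0.257 and 0.399 CPM, with log2 fold changes of -5.47, -5.17 and -5.02. In each of these the TGFβ1 libraries held under 1 CPM. Aqp8, a water and peroxide channel, fell by 3.84 on the log2 scale, and Tmprss2, a membrane serine protease, from 56.4 and 19.7 CPM to 5.18 and 1.54 CPM (log2 fold change -3.55 ± 0.16, adjusted p = 0.000158). Vstm2b, an immunoglobulin domain gene, went from 92.5 and 102 CPM to 6.04 and 11.1 CPM. Mgp, matrix Gla protein, was mostly a KCS-B87 gene, at 2.50 and 59.6 CPM with SB505124 and 0.0428 and 8.12 CPM with TGFβ1, (leave-out range -6.62 to -2.86, call lost without either TGFβ1 library).

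NRF2 is the transcription factor that drives the antioxidant and glutathione program. Of 30 tested genes on its target list, 13 were called lower and 0 higher, 17 passed the adjusted p alone (all lower), and the median was -0.91 in the fit, -0.93 in KCS-B73 and -0.72 in KCS-B87. Without the replicate block 3 stayed called. The members that moved were mainly glutathione enzymes. Gclc, the catalytic subunit of the rate-limiting step of glutathione synthesis, measured 386 and 245 CPM with SB505124 and 127 and 88.4 CPM with TGFβ1 (log2 fold change -1.54 ± 0.10, adjusted p = 0.000597), and its partner Gclm fell by just over the 2-fold rule. Gsta1 fell from 33.2 and 19.6 CPM to 1.11 and 2.19 CPM (log2 fold change -3.96 ± 0.48, adjusted p = 0.00377). Gsta2 had 22 and 25 counts with SB505124 and 0 with TGFβ1, at least 7.90-fold lower against a floor of 3 counts per library. Gm3776, a close relative, had a log2 fold change of -3.38. Gsta1, Gsta2 and Gm3776 share 84.7%, 36.6% and 89.1% of their 75-base stretches with other genes, chiefly each other, so reads could be split among them. The quinone reductase gene Nqo1 (-1.68), the transferases Gstm1 (-1.84), Gstp1 (-1.02) and Mgst1 (-1.58), the carbonyl reductase Cbr3 (-1.92) and the epoxide hydrolase Ephx1 (-1.12) were also called. The cystine transporter gene Slc7a11 fell from 20.1 and 83.2 CPM to 9.08 and 21.2 CPM (leave-out range -1.93 to -1.19, call lost without either KCS-B87 library). Thioredoxin reductase (Txnrd1, -0.11), heme oxygenase (Hmox1, 0.29) and the glutathione conjugate exporter gene Abcc1 (0.31) did not pass the test. The letters TGACNNNGC of the antioxidant response element were added to the motif search after the results were seen. They stood in the promoter window of 12 of the 24 list genes matched, in 2 of the 10 matched and called, and in 17.0% of tested genes (12.4% of windows).

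**Figure D3:**
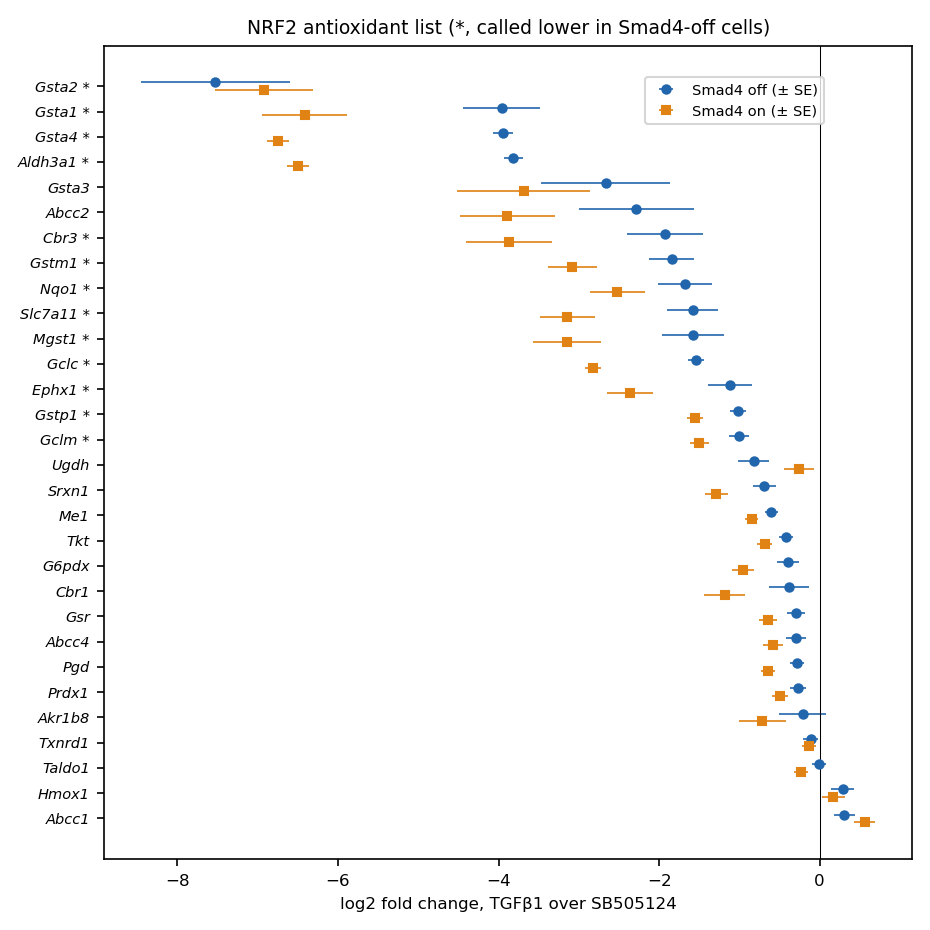
Log2 fold change of TGFβ1 over SB505124 (x axis) for the 30 tested genes of the NRF2 antioxidant list, with Smad4 off in blue and Smad4 on in orange; bars are ± SE of the fit and asterisks mark the 13 genes called lower in Smad4-off cells. Gsta4, Aldh3a1 and Gclc fell less with Smad4 off than on, and Txnrd1, Taldo1, Hmox1 and Abcc1 lay near 0; the fitted value of Gsta2, which had no count with TGFβ1, depends on the prior count.

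Some epithelial and foregut genes fell, led by secreted products of gastric type. Of 15 tested mucin and gastric-type genes (14 more were listed and not tested), 7 were called lower and 0 higher. The median was -1.78 in the fit (-1.32 in KCS-B73, -1.18 in KCS-B87 and -2.32 to -1.40 over the alternative fits). Tff2, a trefoil peptide of gastric mucus, went from 3.54 and 4.39 CPM to 0.171 and 0 CPM, that is from 71 and 100 counts to 4 and 0 counts. Muc5b, a gel-forming mucin, had 36 and 104 counts against 0 and 1 counts, a ratio of 142 (95% exact counting interval 25.1 to 5650.0), and Tff3 had 96 and 13 counts against 1 and 1 counts, a ratio of 55.3 (interval 14.9 to 462). For Tff3 the call was lost without KCS-B73 TGFβ1. These genes were at low levels under either treatment, and no call of the list remained without the replicate block. The other 4 called were Tff1 (-3.77), Anxa10 (-3.17), Vsig1 (-2.62) and Muc13 (-1.78), while Muc1 (0.52) and Ctse (1.34) were not called.

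Of 18 tested pancreatic and foregut identity factors 4 were called lower and 2 higher, at a median of -0.40. Cdx2, an intestinal homeobox factor, measured 57.1 and 40.9 CPM with SB505124 and 24.2 and 15.2 CPM with TGFβ1 (log2 fold change -1.33 ± 0.12, adjusted p = 0.00139), and Pdx1, the pancreatic homeobox factor, had a log2 fold change of -1.08. Hnf4a (-0.94), Gata6 (-0.42) and Sox9 (0.35) were not called. Keratins gave 2 falls and 0 rises of 10. Krt19, the ductal keratin, measured 849.8 and 626 CPM with SB505124 and 436 and 162 CPM with TGFβ1 (log2 fold change -1.46 ± 0.21, adjusted p = 0.0067, leave-out range -1.81 to -1.08, call lost without KCS-B87 TGFβ1). Krt13 fell from 3.25 and 6.24 CPM to 0.300 and 0.797 CPM, whereas Krt8 (-0.25) was not called. Epithelial junction and state genes had 2 calls in each direction among 39, near the background share, with a median of -0.56 (-0.65 to -0.04 over the alternative fits). E-cadherin (Cdh1) was among those not called (log2 fold change -1.07 ± 0.44, adjusted p = 0.162). Ppl, periplakin of the desmosome, fell from 222 and 293 CPM to 122 and 78.4 CPM (leave-out range -1.92 to -0.82, call lost in all fits but that without KCS-B73 SB505124). Cldn4 had no count in either SB505124 library and 69 and 4 counts with TGFβ1, at least 11.2-fold higher, nearly all of it from KCS-B73 and not called without either KCS-B73 library.

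The mesenchymal list gave 7 rises and 1 fall of 29, a median of 0.50. Sox4, a TGFβ-induced factor of the epithelial to mesenchymal transition, measured 33.1 and 21.0 CPM with SB505124 and 134 and 135 CPM with TGFβ1 (log2 fold change 2.33 ± 0.18, adjusted p = 0.000969), although 54.6% of its exon bases overlap an antisense gene. Ncam1, a neural cell adhesion molecule, rose from 12.5 and 30.4 CPM to 65.1 and 98.0 CPM (leave-out range 1.51 to 2.61, call lost without KCS-B87 TGFβ1). Twist2, a transition factor, was the 1 fall (-1.25, leave-out range -1.49 to -1.02, call lost in all fits but that without KCS-B73 SB505124). An antisense gene overlaps 46.5% of its exon bases. Among other transition factors, these were not called: Snai1 with a log2 fold change of 2.02 (adjusted p = 0.0818), Snai2 -0.03, Zeb1 0.50 and Twist1 -0.25. Vim, vimentin, was not called either (0.12). Targets of BMP signaling went down in 4 cases and up in 2 of 15, at a median of -0.47, a value that ran from -0.88 to 0.16 over the alternative fits. Id3, an inhibitor of basic helix-loop-helix factors, measured 61.2 and 90.1 CPM with SB505124 and 22.4 and 32.3 CPM with TGFβ1 (log2 fold change -1.46 ± 0.11, adjusted p = 0.000784). Id2 measured 64.3 and 65.9 CPM with SB505124 and 22.8 and 20.0 CPM with TGFβ1 (leave-out range -1.88 to -1.33, call lost without KCS-B73 SB505124 or KCS-B87 TGFβ1). Id1 (-1.06) and Atoh8 (-3.07, leave-out range -3.64 to -2.58, call lost without either TGFβ1 library) were the other falls. The rises were Smad7 and the ligand gene Bmp2 (1.65, leave-out range 1.06 to 2.09, call lost in all fits but that without KCS-B73 TGFβ1).

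Cell cycle genes had mostly negative values within the 2-fold rule. Of 42 S-phase genes 41 had a negative log2 fold change and 1, Dscc1, was called lower (leave-out range -1.36 to -0.90, call lost in all fits but that without KCS-B73 SB505124), at a median of -0.46 (-0.30 in KCS-B73, -0.61 in KCS-B87 and -0.63 to -0.28 over the alternative fits), and 10 passed the adjusted p alone. Of 52 G2/M genes 50 were negative, 0 were called by edgeR or DESeq2, 12 passed edgeR's adjusted p alone and 28 an unadjusted p under 0.05, all lower, and the median was -0.29 (-0.40 to -0.12 over the alternative fits). Over all tested genes 7477 of 14301 were negative, with a median of -0.02, and 4106 had an unadjusted p under 0.05 in either direction. Mki67, the proliferation marker, measured 1081 and 1249 CPM with SB505124 and 789.5 and 778 CPM with TGFβ1 (log2 fold change -0.57 ± 0.14, adjusted p = 0.0387). Top2a measured 888 and 1067 CPM with SB505124 and 869 and 878 CPM with TGFβ1 (log2 fold change -0.16 ± 0.12, adjusted p = 0.439). Of 21 G1 regulators 1 was called in each direction. Ccnd2, cyclin D2, fell, at 394 and 499 CPM with SB505124 and 201 and 204 CPM with TGFβ1 (log2 fold change -1.12 ± 0.12, adjusted p = 0.00243, leave-out range -1.33 to -0.92, call lost without KCS-B87 TGFβ1). The CDK inhibitor gene Cdkn1a, p21, measured 158 and 107 CPM with SB505124 and 252 and 293 CPM with TGFβ1 (log2 fold change 1.07 ± 0.20, adjusted p = 0.0174, leave-out range 0.78 to 1.36, call lost without either KCS-B87 library), while Cdkn1b (-0.40) and Myc (0.21) were not called.

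Of 23 apoptosis genes 2 were called higher (8.7%, against 3.11% of all tested genes) and 0 lower, at a median of 0.08. Neither call remained without the replicate block. The 2 genes are of the BH3-only class, which promotes cell death. Bmf measured 1.20 and 0.307 CPM with SB505124 and 7.2 and 6.53 CPM with TGFβ1 (leave-out range 2.55 to 4.42, call lost without either TGFβ1 library). Pmaip1, Noxa, measured 34.6 and 32.6 CPM with SB505124 and 70.2 and 91.9 CPM with TGFβ1 (leave-out range 0.85 to 1.66, call lost in all fits but that without KCS-B73 TGFβ1). Of 18 KLF and RUNX factors 0 were called by edgeR and 1 by DESeq2, 5 rises and 2 falls passed edgeR's adjusted p alone and 10 genes an unadjusted p under 0.05, and the median was 0.43 (0.09 to 0.48 over the alternative fits). Klf6 measured 242 and 217 CPM with SB505124 and 331 and 306 CPM with TGFβ1 (log2 fold change 0.48 ± 0.09, adjusted p = 0.0215), with Klf4 at -0.89 and Runx1 at 0.78. In lipid and prostaglandin metabolism, Ptgs2, the inducible cyclooxygenase, measured 36.8 and 41.2 CPM with SB505124 and 259.6 and 461 CPM with TGFβ1 (log2 fold change 3.15 ± 0.17, adjusted p = 0.000376), well above both SB505124 libraries. The list of 16 eicosanoid genes had 2 rises and 1 fall, the fall being of the prostaglandin transporter gene Slco2a1 (-2.64, leave-out range -3.27 to -2.10, call lost without either KCS-B87 library). Plin2, a lipid droplet coat, rose from 112 and 100.1 CPM to 349 and 392 CPM. Pparg, the adipogenic nuclear receptor, fell from 93.2 and 51.4 CPM to 32.9 and 12.7 CPM. Their list of 22 lipid genes had 1 rise and 2 falls. No member was called by edgeR or DESeq2 in 5 further lists. Members at an unadjusted p under 0.05 in edgeR were 6 of 24 for cholesterol synthesis, 1 of 24 for ribosomal proteins, 3 of 7 for mitochondrially encoded genes, 6 of 22 for the interferon response and 0 of 15 for class I antigen presentation. Over all tested genes 4106 of 14301 had such a p in edgeR, the background for these lists and for the KLF and RUNX list.

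**Figure D4:**
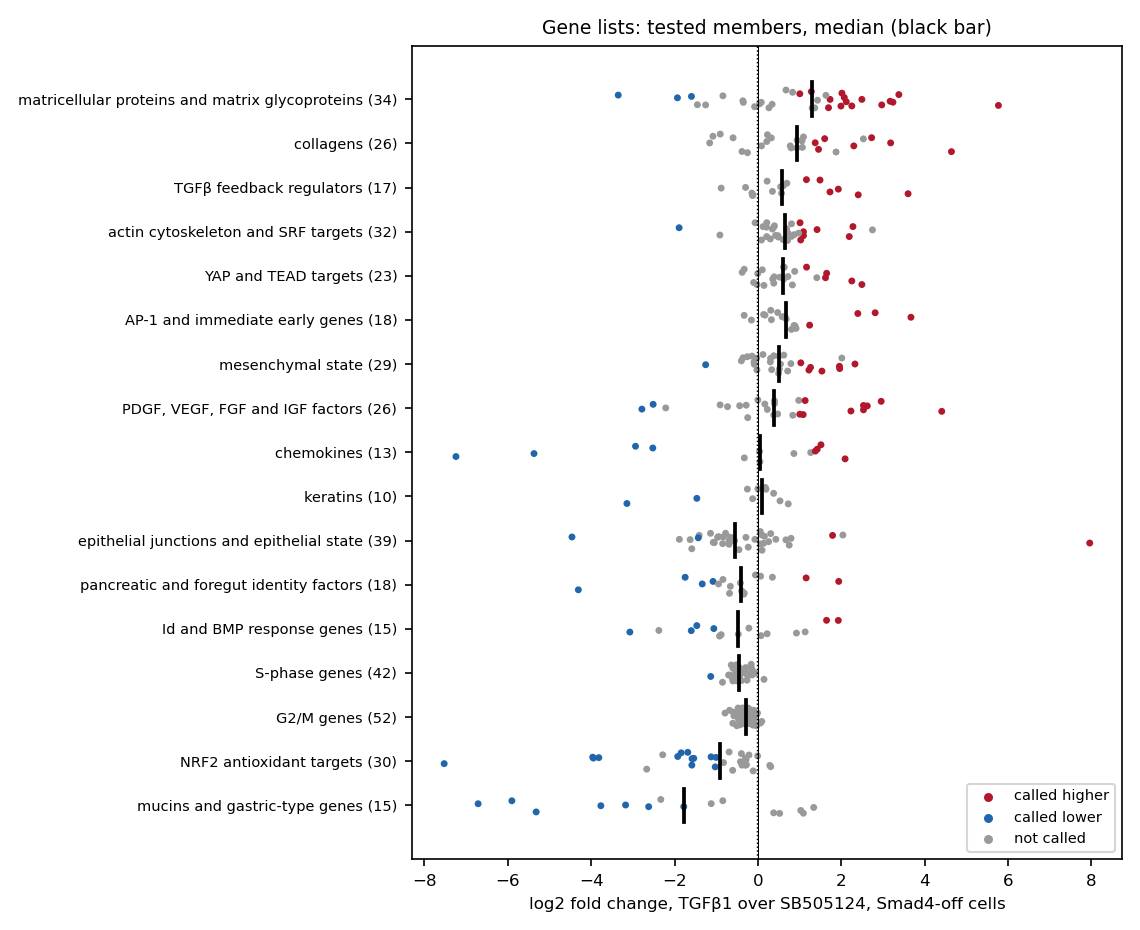
Log2 fold change of TGFβ1 over SB505124 in Smad4-off cells (x axis) for the tested members of 17 gene lists, with the number tested in parentheses; red and blue points are called higher and lower, grey points are not called, black bars are list medians and the dotted line is the median of all tested genes. Medians in the fit ran from 1.29 for the matricellular list to -1.78 for the mucin and gastric list.

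Set beside the same contrast in the 4 Smad4-on libraries, the Smad4-off response had fewer called genes, and most of them were called in the same direction in both states. The Smad4-on contrast had 1993 calls (13.9%), of which 804 were rises and 1189 falls. Of the 445 Smad4-off rises 386 (86.7%) were also called higher in Smad4-on cells, which is 48.0% of the Smad4-on rises, and of the 403 falls 385 (95.5%) were also called lower, which is 32.4% of the Smad4-on falls. Of the 848, 0 were called in the opposite direction. The genes called lower in Smad4-off cells had a median log2 fold change of -3.08 in Smad4-on cells against -1.95, and 355 of 403 changed less with Smad4 off. For the rises the medians were 2.01 and 1.79, and 278 of 445 changed less. The 59 rises and 18 falls called with Smad4 off alone are not shown to differ between the states, since none of them had a called difference in edgeR (20 and 4 at an unadjusted p under 0.05; 2 and 0 were called by DESeq2 with the line).

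The difference of the responses was called for 27 genes (0.189% of those tested), 19 with the Smad4-off value above the Smad4-on value and 8 below, and 12 of the 27 were called in Smad4-off cells. The falls of Il33 (log2 fold change -1.90 with Smad4 off and -5.07 with Smad4 on; difference 3.17 ± 0.19, adjusted p = 0.00529), Gsta4 (-3.95 and -6.75; difference 2.80 ± 0.17, adjusted p = 0.00529) and Aldh3a1 (-3.82 and -6.50; difference 2.69 ± 0.17, adjusted p = 0.00529) were each smaller with Smad4 off. So were those of Mgat3, a glycosyltransferase of N-glycans (-1.57 and -4.60), and Selenop, a selenium carrier (-1.89 and -3.33). Positive values that were smaller with Smad4 off were those of Vegfa (0.84 and 2.21; difference -1.38 ± 0.13, adjusted p = 0.0206), the adhesion receptor gene Adgrg1 (0.92 and 2.81), Fermt2, kindlin 2 of integrin adhesions (0.90 and 1.91), the proton pump subunit gene Atp6v1g1 (0.42 and 1.68) and Nabp1 (0.29 and 1.79). The number of called differences depended on the model. It was 0 by edgeR without the replicate block (640 at an unadjusted p under 0.05) and 40 by DESeq2 without it. DESeq2 with the line called 136, all 27 among them. With a Smad4-off library left out, edgeR called 4 without KCS-B73 SB505124, 0 without KCS-B73 TGFβ1, 9 without KCS-B87 SB505124 and 4 without KCS-B87 TGFβ1.

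**Figure D5:**
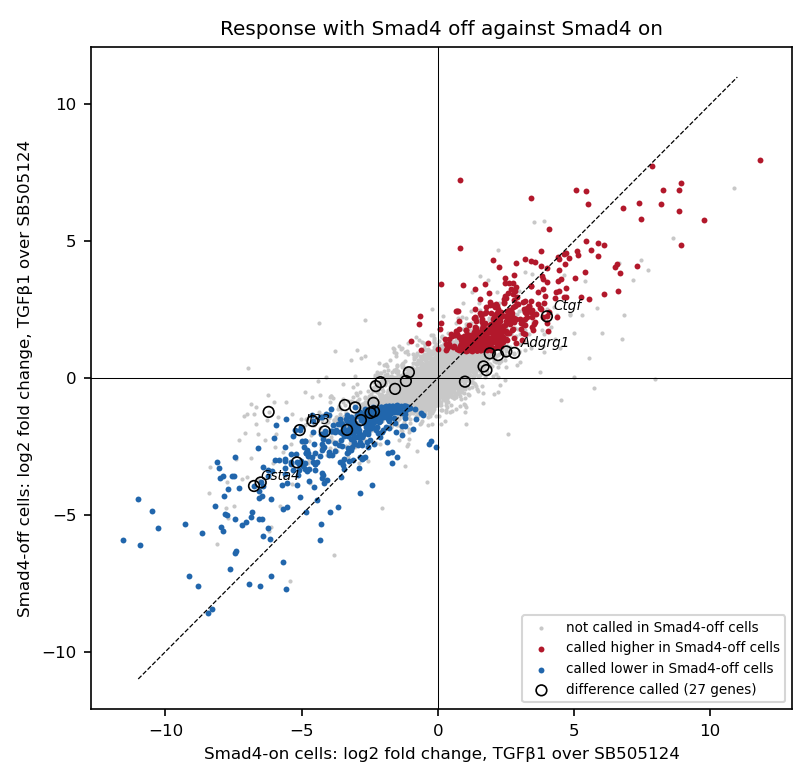
Log2 fold change of TGFβ1 over SB505124 in Smad4-on cells (x axis) against Smad4-off cells (y axis), 1 point per tested gene, coloured by the call in Smad4-off cells, with open circles around the 27 genes whose difference was called; the dashed line marks equal change. Most blue points lie between the dashed line and the x axis: 355 of the 403 falls were smaller with Smad4 off.

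Between the lines, 0 genes (0% of those tested) had a called difference of the TGFβ1 response in edgeR, tested over both Smad4 states, and 1198 had an unadjusted p under 0.05. The Pearson correlation of the lines' log2 fold changes in Smad4-off cells was 0.717 across the 14301 tested genes, which are not independent replicates. Among called genes the smallest p for a line difference belonged to Fgf1, Thbs1 and Acta2 on one side and Slc7a11, Dock8 and Orm3 on the other. Acta2 rose to 31.9 and 129 CPM (line log2 fold changes 1.64 and 2.64; line difference adjusted p = 0.34). Dock8, a guanine exchange factor, measured 18.1 and 19.7 CPM with SB505124 and 85.0 and 39.9 CPM with TGFβ1 (line log2 fold changes 2.23 and 1.01; adjusted p = 0.534; leave-out range 1.07 to 2.19, call lost in all fits but that without KCS-B87 TGFβ1). Orm3, an acute phase gene, measured 1.95 and 1.98 CPM with SB505124 and 0.428 and 0.0996 CPM with TGFβ1 (adjusted p = 0.534; leave-out range -4.04 to -2.36, call lost without any one library).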

How the data were processed

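Poly(A) RNA of 8 libraries was sequenced as 75-base single-end reads on a strand-marking kit. Per the methods and the submitters' processing notes, the authors checked reads with FastQC 0.11.5, trimmed them with Trimmomatic 0.36, aligned them with STAR 2.5.3a to GRCm38/mm10 and counted them per gene with featureCounts 1.6.3; the strand setting of the counting was not given in the sources used here. The deposited values were raw counts per gene, with no normalization. The total per library, 19037427 to 23123069 counts in the 4 Smad4-off libraries, sets the precision, and intervals and floors cover counting error only.

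Counts were filtered with filterByExpr, scaled by TMM and fitted in edgeR 4.0.16 (R 4.3.3) with a quasi-likelihood model of group plus cell line over all 8 libraries. A gene was called at a Benjamini–Hochberg adjusted p under 0.05 over all 14301 tested genes and a change of over 2-fold. Standard errors were taken as log2 fold change over root F. CPM used TMM-scaled totals. The study's own test was DESeq2, with no covariate named; DESeq2 1.42.0 with and without the line was an alternative here. The line was kept as a replicate block because same-numbered libraries come from the same cell line, and their deviations from the group means correlated at 0.642 to 0.774. The 2 lines are the only replicates, so p-values measure the spread between these libraries. Alternatives changed the block, the tool, the scaling, the filter, the fold rule and the libraries in the fit.

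Genes were named by rule: Smad4; the 12 largest rises and 12 largest falls called among genes with a mean of at least 1 log2 CPM and the same sign in both lines; in each list the 3 largest called rises and 3 largest called falls; the 5 most abundant called genes in each direction; the 5 genes in each direction with the smallest p for the Smad4-state difference; and the 3 in each direction for the line difference. Uncalled list members are given as values. The members and lists were chosen with earlier results of these data known. Transcripts were compared in 75-base stretches to find genes that could share reads. Scripts were tested on simulated data. Python 3.11.15 with pandas 2.3.3 and matplotlib 3.10.9 was used for lists and plots. Some genes picked by these rules, and part of the mouse genotype, are not reported here.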

Additional observations from a re-analysis of the deposited data

Results flagged for a closer look

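A difference of the TGFβ1 response between Smad4-off and Smad4-on cells, tested as the interaction in edgeR with the line in the model, was called for 27 genes. Below, the Smad4-off log2 fold change minus the Smad4-on log2 fold change is given for the 5 in each direction with the smallest p. It was 3.17 for Il33, 3.02 for Mgat3, 2.80 for Gsta4, 2.69 for Aldh3a1 and 1.44 for Selenop, all of which fell in both states and fell less with Smad4 off. It was -1.90 for Adgrg1, -1.50 for Nabp1, -1.38 for Vegfa, -1.26 for Atp6v1g1 and -1.01 for Fermt2, which had positive log2 fold changes in both states, smaller with Smad4 off. Of the 75-base stretches of Atp6v1g1, 12.5% also occur in other genes, Gm13453 foremost. The exons of Selenop overlap the antisense gene Ccdc152 over 15.4% of their bases. With 2 libraries a group, no library could be tested for standing apart from its group.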

How the results depend on the processing

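Each log2 fold change and count was recomputed under alternatives to the fit. Cell lines pair the libraries, and with no replicate block edgeR called 121 rises, 47 falls and 0 differences between Smad4 states, while DESeq2 with no replicate block called 280 rises (267 of them shared with the calls reported), 199 falls (191 shared) and 40 differences. With only the 4 Smad4-off libraries and no replicate block 1 rise and 0 falls were called, at 529 and 473 when the line was in that model. DESeq2 with the line called 434 rises, 359 falls and 136 differences. No filter on low counts gave 284 differences between Smad4 states and 80 between lines. Without the fold rule there were 996 rises and 892 falls, and testing against a 2-fold change (glmTreat) left 115 rises, 89 falls and 3 differences. Leaving out each Smad4-off library in turn gave 226 to 387 rises, 151 to 279 falls and 0 to 9 differences. Of the 156 named called genes, 156 kept the call with DESeq2 size factors, 144 in DESeq2 with the line, 70 under glmTreat and 39 with no replicate block. Among these 156 genes Igf1 alone changed sign. Its log2 fold change ran from -0.88, without the KCS-B87 SB505124 library, to 4.70 over the fits that each left out a library. The cause of these changes was not tested. The median of all genes moved by under 0.1 under each scaling. The alternatives for the line difference were chosen after seeing the data, and leaving out each of the 8 libraries in turn gave 0 calls there each time; the 4 Smad4-off libraries alone have no residual degrees of freedom for it. With 2 libraries a group and 3 counts at 0.129 to 0.150 CPM, small changes of rare transcripts were not detectable.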

Other observations

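Genes of the Wnt pathway were mostly ligands and antagonists among the changed. Of 25 tested, 5 were called higher and 1 lower (background 3.11% and 2.82%), with a median log2 fold change of 0.36 (0.08 to 0.62 over the alternative fits). Wnt9a went from 1.70 and 1.36 CPM to 11.4 and 9.17 CPM (log2 fold change 2.76 ± 0.34, adjusted p = 0.00389), Dkk2, a secreted Wnt modulator, from 0.799 and 1.23 CPM to 3.86 and 23.3 CPM, and Wnt7b from 31.1 and 8.17 CPM to 127 and 42.1 CPM, the last with a leave-out range 1.86 to 2.59, call lost in all fits but that without KCS-B73 TGFβ1. Wnt4 moved the other way, from 21.2 and 10.5 CPM to 2.53 and 0.947 CPM (log2 fold change -3.19 ± 0.28, adjusted p = 0.00127). In the Notch list 2 of 14 were called higher and 0 lower, the ligand gene Jag1 at 46.9 and 51.6 CPM with SB505124 and 125 and 135 CPM with TGFβ1 (leave-out range 1.11 to 1.72, call lost without KCS-B73 SB505124 or KCS-B87 TGFβ1) and the target Hes1 at 28.1 and 28.0 CPM with SB505124 and 54.0 and 58.6 CPM with TGFβ1 (leave-out range 0.93 to 1.09, call lost without either KCS-B87 library). The Hedgehog list had 2 falls and 0 rises among 9, Gli2, a transcription factor of the pathway, from 30.4 and 63.9 CPM to 4.84 and 16.7 CPM and the co-receptor gene Gas1 from 5.14 and 6.72 CPM to 2.10 and 1.94 CPM. Both lost the call without any one library (leave-out ranges -2.97 to -1.65 and -2.07 to -1.01). Axon guidance genes gave 2 rises and 1 fall of 40, near the background. Unc5b, a netrin receptor gene, measured 308 and 301 CPM with SB505124 and 599.5 and 793 CPM with TGFβ1 (log2 fold change 1.18 ± 0.12, adjusted p = 0.00204), and the semaphorin gene Sema4a fell from 13.5 and 4.74 CPM to 2.44 and 0.797 CPM.

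Retinoic acid metabolism gave 1 rise and 3 falls among 14 tested genes. Aldh1a1, a retinaldehyde dehydrogenase, fell from 171 and 110.0 CPM to 69.5 and 50.0 CPM (log2 fold change -1.22 ± 0.09, adjusted p = 0.000662), while its relative Aldh1a3 measured 1.70 and 1.19 CPM with SB505124 and 6.30 and 3.74 CPM with TGFβ1 (leave-out range 1.42 to 2.10, call lost without any one library). Epithelial ion transport genes had 3 calls each way of 24, at a median of -0.65 (-0.65 to -0.28 over the alternative fits). The kinase gene Wnk4 fell from 51.0 and 55.6 CPM to 7.16 and 5.53 CPM (log2 fold change -3.08 ± 0.16, adjusted p = 0.00032), and Cftr, the ductal chloride channel, from 25.2 and 4.96 CPM to 3.38 and 1.89 CPM (leave-out range -3.01 to -1.23, call lost in all fits but that without KCS-B87 TGFβ1). Among 26 targets of the stress factor ATF4 there were 2 rises and 2 falls, a median of -0.45 (-0.73 to -0.12 over the alternative fits) and opposed examples: Ddit4, an mTORC1 inhibitor, measured 26.1 and 15.9 CPM with SB505124 and 73.2 and 106 CPM with TGFβ1 (log2 fold change 2.07 ± 0.28, adjusted p = 0.00522), and Stc2, a secreted stanniocalcin, 27.4 and 48.8 CPM with SB505124 and 5.18 and 6.38 CPM with TGFβ1 (log2 fold change -2.69 ± 0.20, adjusted p = 0.000735). Of 28 glycolysis and hypoxia genes 2 were called higher and 0 lower, led by the lactate exporter gene Slc16a3 at 2.0 and 4.04 CPM with SB505124 and 6.04 and 29.8 CPM with TGFβ1 (leave-out range 1.71 to 2.81, call lost without KCS-B87 SB505124). Epidermal differentiation and S100 genes had 2 rises and 0 falls of 18, Lce1g (leave-out range 3.62 to 7.56, call lost without KCS-B73 SB505124 or KCS-B87 TGFβ1) and Lor (leave-out range 1.56 to 2.25, call lost without any one library), both near the floor with SB505124. The study's panel of tumor-suppressive SMAD4 targets had 2 rises (Bmf, Cdkn1a) and 2 falls (Id2, Id3) among 7 tested. Its other 3 members had too few counts to be tested. Cdkn1c, p57, had 7 and 5 counts with SB505124 and 11 and 4 counts with TGFβ1, and Cdkn2a and Cdkn2b had 0 in all 4 libraries. Whether these libraries entered the choice of the panel was not stated. For Cdkn2a and Cdkn2b, the study reported from DNA sequencing that most lines grown from such tumors had lost both gene copies. Whether KCS-B73 and KCS-B87 carry this loss was not tested here, so the zero counts are not read as a lack of response to TGFβ1.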
